A study of Penicillium oxalicum with 9 samples.

Results

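PDE_07008 and PDE_09900 are 2 of the 9786 genes in a table of transcript levels from Penicillium oxalicum, a mould known for secreting cellulose-degrading enzymes. They were chosen by their locus numbers, their KEGG Orthology entries (thiamine thiazole synthase for PDE_07008 and pyrimidine precursor biosynthesis enzyme for PDE_09900) and their place among the most abundant transcripts. RNA sequencing had been done on mycelia of 3 strains, with 3 biological replicates of each. The labels describe the strains as deletion mutants for PoflbC, PoClrC or CA, here written dPoflbC, dPoClrC and dCA; what CA stands for is not explained. Every culture had been grown in Vogel's medium at 30 °C with shaking at 200 rpm, first on 2% glucose for 22 h, then without carbon for 2 h and then on 2% cellulose for 4 h. No unmutated strain is among the samples, so a difference between strains cannot be assigned to either one. The deleted genes carry no names in the table and could not be checked. The labels call the replicates biological but name no separate cultures, so p-values measure the spread between these samples, which may be technical.

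Thiamine, vitamin B1, is made in fungi by joining a thiazole ring and a pyrimidine ring that are built separately. The thiazole synthase (Thi4 in Saccharomyces cerevisiae) makes the first from NAD and glycine, and the pyrimidine precursor enzyme (Thi5 in S. cerevisiae) makes the second from pyridoxal phosphate and histidine. In S. cerevisiae both proteins donate atoms of their own residues to the product and are used up by the reaction. The finished vitamin becomes thiamine diphosphate, the cofactor of transketolase, pyruvate decarboxylase and the first enzymes of several dehydrogenase complexes. In Aspergillus oryzae and Neurospora crassa, the genes for these precursor enzymes are known to be turned down by thiamine. PDE_07008 has a coding length of 990 bases and PDE_09900 one of 1029 bases. The gene table describes both only as hypothetical proteins, so the enzyme names rest on KEGG. Genome positions were not analysed here.

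Libraries held 6.49 to 7.76 M reads in genes (M, 1e+06). Levels are RPKM, the reads per kilobase of coding length and per M reads of the library, as mean ± SD over 3 libraries. Differences are log2 fold changes with their standard error (SE) from edgeR's quasi-likelihood test after scaling of the libraries (TMM), with Benjamini-Hochberg adjustment over all 8681 genes tested. The words rose, fell and called are kept for an adjusted p under 0.05 together with a log2 fold change of at least 1 in size. The scaling factors ran from 0.680 in dCA replicate 2, a library that stood apart from its strain, to 1.24 in dPoflbC replicate 1. With no scaling beyond library size, the median log2 fold change of all genes tested was 0.51 in dPoflbC against dCA, 0.30 in dPoClrC against dCA and 0.29 in dPoflbC against dPoClrC. After scaling these medians were -0.07, 0.00169 and 0.01, so each difference is relative to the other genes.

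The thiazole synthase PDE_07008 was high in dPoflbC, intermediate in dPoClrC and low in dCA. In dPoflbC its level was 8565, 8836 and 9277 RPKM in replicates 1, 2 and 3. In dPoClrC it was 4790, 4259 and 5657 RPKM. In dCA it was 1384, 785 and 1508 RPKM, with the lowest value in dCA replicate 2. The strains did not overlap: the lowest dPoflbC library lay above the highest of dPoClrC, and the lowest dPoClrC library lay above the highest of dCA. These levels come from 62196 to 67843 reads per library in dPoflbC, 29472 to 38928 in dPoClrC and 5749 to 11158 in dCA. In bulk mycelia, fewer cells with the transcript and less of it per cell cannot be told apart.

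The pyrimidine precursor enzyme PDE_09900 varied less between the strains. In dPoflbC its level was 6616, 7102 and 7571 RPKM. In dPoClrC it was 5229, 6130 and 6821 RPKM, which overlaps dPoflbC. In dCA it was 4097, 3016 and 3618 RPKM, below every library of the other strains. The gene was covered by 22959 to 56678 reads per library. In all 9 libraries, reads covered 99.9% of the length of each gene, by the authors' coverage values.

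**Figure D1:**
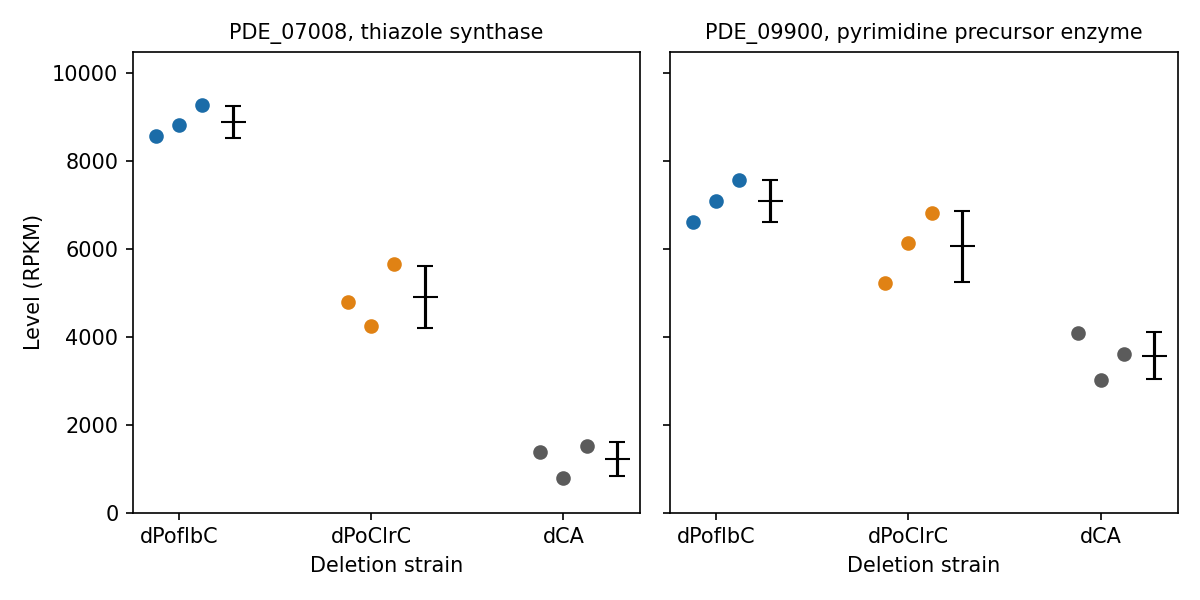
Level in RPKM (vertical axis, from 0) of PDE_07008 and PDE_09900 in the 3 deletion strains (horizontal axis). Coloured points are single libraries in replicate order and black bars are the mean ± SD of 3 libraries. PDE_07008 runs from 785 to 1508 RPKM in dCA up to 8565 to 9277 RPKM in dPoflbC without overlap, while PDE_09900 overlaps between dPoflbC and dPoClrC.

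Both genes had been picked for abundance, so their ranks are a description. By mean RPKM over the 9 libraries PDE_09900 was at rank 13 (5578 RPKM) and PDE_07008 at rank 14 (5007 RPKM). Beside them stood PDE_05881 at rank 12 (5774 RPKM) and PDE_08156 at rank 15 (4898 RPKM), both described only as hypothetical proteins. Neither of these neighbours had its lowest mean in dCA. PDE_05881 was at 2243 ± 257, 7171 ± 754 and 7908 ± 1538 RPKM in dPoflbC, dPoClrC and dCA, and PDE_08156 at 6620 ± 445, 3276 ± 708 and 4798 ± 459 RPKM. Within single libraries PDE_07008 ranked 2 to 3 in dPoflbC, 15 to 19 in dPoClrC and 77 to 169 in dCA. PDE_09900 ranked 4 in each dPoflbC library, 12 to 16 in dPoClrC and 24 to 45 in dCA. Together the 2 genes took 1.61% ± 0.0845 of all reads in dPoflbC, 1.11% ± 0.134 in dPoClrC and 0.489% ± 0.0897 in dCA (SD, n = 3).

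PDE_07008 rose in dPoflbC and in dPoClrC against dCA, and PDE_09900 was not called in any of the 3 comparisons. The place of PDE_07008 among the most abundant transcripts came from dPoflbC and dPoClrC, and in dCA it ranked 77 to 169. Its tests against dCA thus reuse values by which it was chosen, and their p-values take no account of that choice. The comparisons share libraries, so their values stand side by side and are not independent of each other. PDE_07008 had 8892 ± 359 RPKM in dPoflbC and 1225 ± 387 RPKM in dCA, which gave a log2 fold change of 2.31 (SE 0.21, adjusted p = 9.47e-06, edgeR). In that comparison 27.1% of all genes tested were called in either direction, and 11.4% were called higher. Its level of 4902 ± 706 RPKM in dPoClrC gave a log2 fold change of 1.72 against dCA (SE 0.21, adjusted p = 0.000274, edgeR), where 13.0% of genes were called and 5.69% were called higher. Between dPoflbC and dPoClrC the log2 fold change was 0.58 (SE 0.20, adjusted p = 0.0315, edgeR). That value is below the size a call needs, and there 22.6% of all genes tested were called, 9.05% higher and 13.6% lower. In the comparisons with dCA, 15.8% of genes were called lower for dPoflbC and 7.35% for dPoClrC. Its scaled counts did not overlap between any of the strains, and were higher in the first-named strain each time, as in 30.9%, 24.4% and 34.9% of genes in the 3 comparisons in the same order. Without dCA replicate 2 the values against dCA were 2.18 for dPoflbC and 1.59 for dPoClrC, both still called.

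PDE_09900 had 7096 ± 478 RPKM in dPoflbC, 6060 ± 798 RPKM in dPoClrC and 3577 ± 542 RPKM in dCA. The scaled log2 fold change was 0.41 in dPoflbC against dCA (SE 0.18, adjusted p = 0.0737, edgeR) and 0.46 in dPoClrC against dCA (SE 0.18, adjusted p = 0.0703, edgeR). Neither difference passed this test, which does not show that the strains are alike. The adjusted p was under 0.05 in 6 of 18 alternatives for each, among them DESeq2, which also scales the libraries (0.46, adjusted p = 0.00141, and 0.49, adjusted p = 0.00128). With no scaling the same differences were 0.99 (adjusted p = 0.00144) and 0.76 (adjusted p = 0.0148), still under the size a call needs. The larger unscaled values include the unscaled median of all genes: relative to that median, PDE_09900 stood at 0.48 in dPoflbC against dCA with and without scaling, and at 0.46 in dPoClrC against dCA. Between dPoflbC and dPoClrC the log2 fold change was -0.05 (SE 0.18, adjusted p = 0.831, edgeR), and 0.23 (adjusted p = 0.358) with no scaling. Its scaled counts did not overlap between dCA and either other strain, which was also true of 68.2% of all genes tested in dPoflbC against dCA and 50.6% in dPoClrC against dCA. Between dPoflbC and dPoClrC, where PDE_09900 overlapped, 69.6% of genes did not.

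Set among all genes tested, the thiazole synthase lay further out than the pyrimidine precursor enzyme in each comparison, and nearest to the end of the range in those with dCA. In dPoflbC against dCA, 97.2% of genes had a lower log2 fold change than PDE_07008 and 73.3% a lower one than PDE_09900. In dPoClrC against dCA these shares were 98.1% and 80.9%. In dPoflbC against dPoClrC they were 80.2% and 46.4%. These shares are a description. PDE_07008 owed its choice to its abundance in dPoflbC and dPoClrC, which favours a high place against dCA.

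**Figure D2:**
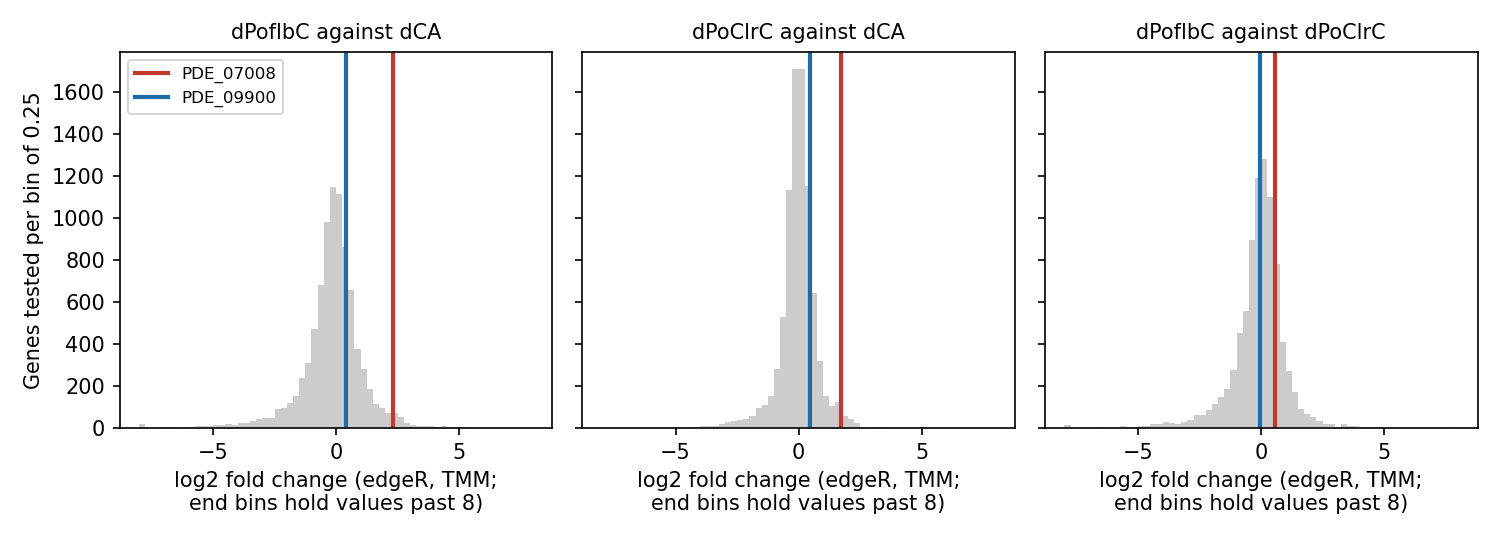
Number of genes tested (vertical axis) by log2 fold change from edgeR after TMM scaling (horizontal axis, bins of 0.25, values past 8 in the end bins) in the 3 comparisons. The red line is PDE_07008 (2.31, 1.72 and 0.58) and the blue line PDE_09900 (0.41, 0.46 and -0.05). The red line lies in the right tail in both comparisons with dCA, a place favoured by the choice of PDE_07008 for abundance in dPoflbC and dPoClrC.

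The spread between replicates depended on the scale for PDE_09900. In unscaled RPKM the coefficient of variation (SD over mean) of PDE_07008 was 4.04% in dPoflbC, 14.4% in dPoClrC and 31.5% in dCA, where the median of all genes tested was 8.20%, 10.8% and 20.1%. That of PDE_09900 was 6.73%, 13.2% and 15.1%. In scaled counts PDE_07008 had 5.98%, 14.0% and 20.01%, beside medians of 8.18%, 10.6% and 14.4%. PDE_09900 had 8.65%, 14.4% and 4.27%, so its dCA libraries were the most variable of the 3 strains in RPKM and the least variable in scaled counts. The dCA spread of PDE_07008 was above the median gene's on both scales.

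Which of the 2 transcripts had the higher RPKM depended on the strain. RPKM allows for coding length but for no other difference between genes. A ratio near 1 thus does not settle which transcript was the more abundant, and the change between strains is the firmer result. The ratio itself was not used in choosing the genes, but the levels it is made from were, so it is not independent of that choice. It also reuses the levels behind the fold changes above. Scaling of the libraries cancels out of it. The RPKM of PDE_07008 divided by that of PDE_09900 was 1.29, 1.24 and 1.23 in the dPoflbC libraries. It was 0.916, 0.695 and 0.829 in dPoClrC and 0.338, 0.26 and 0.417 in dCA. By RPKM the thiazole synthase transcript exceeded the pyrimidine one in every dPoflbC library and was below it in every library of the other strains. The ratios did not overlap between any strains.

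The mean ratio was 1.25 ± 0.0359 in dPoflbC, 0.813 ± 0.112 in dPoClrC and 0.338 ± 0.0783 in dCA (SD, n = 3). On the log2 scale the ratio differed by 1.92 between dPoflbC and dCA (SE 0.20), by 1.28 between dPoClrC and dCA (SE 0.23) and by 0.63 between dPoflbC and dPoClrC (SE 0.12). Each of the 3 comparisons gave p = 0.1 in a two-sided exact permutation test over libraries, and 0.1 after Benjamini-Hochberg adjustment over the 3. That is the smallest p that 3 libraries against 3 allow, so this test cannot pass 0.05. Each difference was larger than its SE, which is a description, since the levels behind the ratio were used in choosing the genes. Leaving out dCA replicate 2 moved the dCA mean to 0.377.

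**Figure D3:**
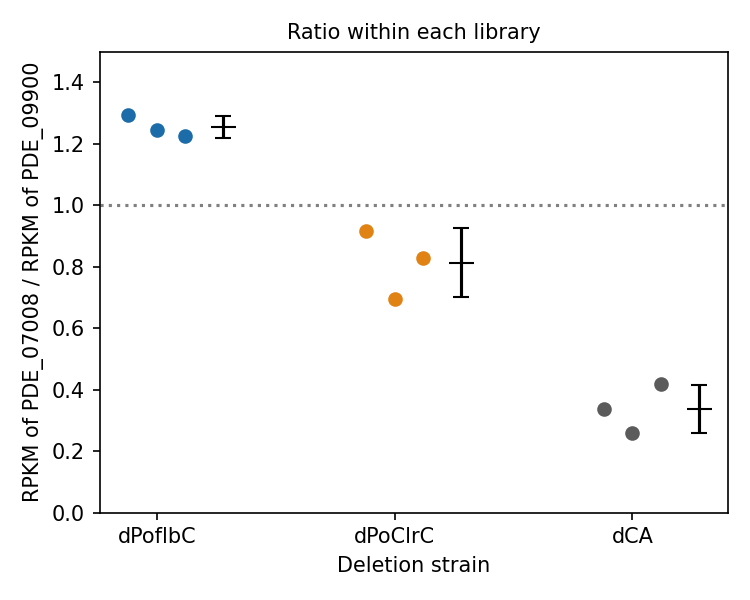
RPKM of PDE_07008 divided by RPKM of PDE_09900 (vertical axis, from 0) in the libraries of the 3 strains (horizontal axis). Points are libraries, black bars are the mean ± SD and the dotted line marks equal levels; dPoflbC lies above the line at 1.23 to 1.29, dPoClrC below it at 0.695 to 0.916 and dCA at 0.26 to 0.417.

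The other thiamine genes were less abundant than the 2 precursor genes, which had been chosen for their abundance, so the shares and factors here are a description. The search words found 6 thiamine genes in the table, PDE_07008 and PDE_09900 and 4 others, and all 6 had enough reads to be tested. The 2 precursor genes held 99.4% ± 0.0507 of the summed RPKM of the 6 in dPoflbC, 99.3% ± 0.101 in dPoClrC and 98.9% ± 0.0721 in dCA. PDE_09900 was 194 times the highest of the other 4 in dPoflbC, 152 times in dPoClrC and 128 times in dCA, all by mean RPKM. For PDE_07008 these factors were 243, 123 and 43.8.

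Among the 4 other thiamine genes, dPoflbC against dCA had 1 that rose and 0 that fell, 0 rose or fell in dPoClrC against dCA, and 1 rose and 0 fell in dPoflbC against dPoClrC. Over all genes tested, 11.4%, 5.69% and 9.05% were called higher in these comparisons and 15.8%, 7.35% and 13.6% lower, and with 4 genes a count of 0 or 1 is near those shares. Their median log2 fold changes were 0.63, -0.00589 and 0.43, against -0.07, 0.00169 and 0.01 over all genes tested. The member that rose was PDE_06353, which KEGG matches to a mitochondrial carrier of thiamine pyrophosphate, another name of thiamine diphosphate. Its level was 18.4, 11.1 and 12.6 RPKM in dPoflbC, 4.51, 2.55 and 4.07 RPKM in dPoClrC and 2.58, 3.26 and 4.63 RPKM in dCA. The dPoflbC libraries stood apart, and those of dPoClrC and dCA overlapped. The same held for PDE_06353 in scaled counts. On that scale, 30.9% of all genes tested were higher in dPoflbC than in dCA without overlap, and 34.9% were higher than in dPoClrC. The log2 fold change of PDE_06353 was 1.40 in dPoflbC against dCA (SE 0.29, adjusted p = 0.00187, edgeR) and 1.64 in dPoflbC against dPoClrC (SE 0.29, adjusted p = 0.000793, edgeR).

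PDE_04361, which KEGG names thiamine-phosphate diphosphorylase and hydroxyethylthiazole kinase, is the enzyme that joins the 2 rings and also phosphorylates the thiazole alcohol. Its level was 34.1, 38.3 and 37.2 RPKM in dPoflbC, 33.0, 26.7 and 27.6 RPKM in dPoClrC and 17.9, 8.18 and 14.0 RPKM in dCA. The dCA libraries lay below all the others, as for PDE_07008 and PDE_09900. The dCA libraries also lay lowest for PDE_04361 in scaled counts. On that scale, 30.9% of all genes tested were higher in dPoflbC than in dCA without overlap, and 24.4% were higher in dPoClrC. The scaled log2 fold changes of PDE_04361 against dCA were 0.90 for dPoflbC (adjusted p = 0.000825, edgeR) and 0.84 for dPoClrC (adjusted p = 0.00326, edgeR), just short of a call. With no scaling both were called, at 1.45 and 1.12.

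PDE_03847, the kinase that phosphorylates hydroxymethylpyrimidine, was at 33.2 ± 2.46, 39.9 ± 0.352 and 27.98 ± 6.68 RPKM in dPoflbC, dPoClrC and dCA. It was not called in any comparison, and its log2 fold change in dPoflbC against dCA was -0.32 after scaling and 0.25 without. The thiamine pyrophosphokinase PDE_09207, which turns thiamine into its active diphosphate, was at 17.1 ± 3.04, 8.11 ± 1.21 and 8.88 ± 1.72 RPKM. Its log2 fold change in dPoflbC against dPoClrC was 0.80 (adjusted p = 0.00333, edgeR), which is not a call, and 1.08 with no scaling, which is.

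**Figure D4:**
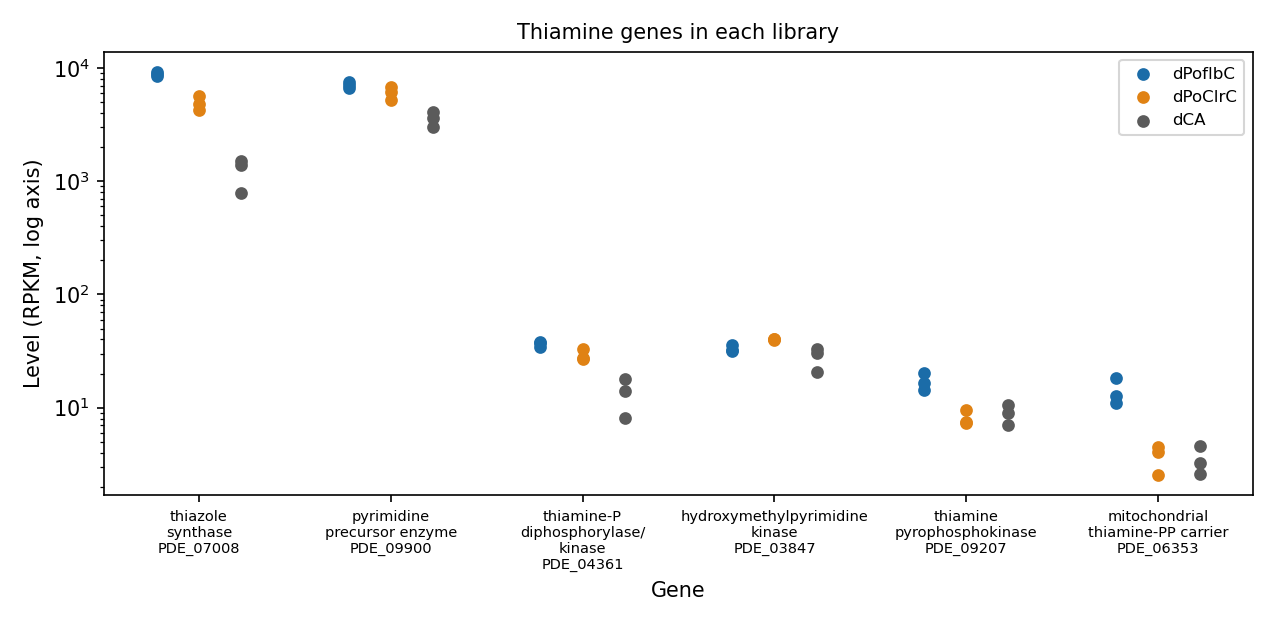
Level in RPKM (vertical axis, log scale) of the 6 thiamine genes (horizontal axis) in each library, coloured by strain. The 2 precursor genes lie at 785 to 9277 RPKM, and the other 4 genes lie at 2.55 to 40.2 RPKM in every library.

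Enzymes that carry thiamine diphosphate did not share one pattern. The search found 11 such genes, and 10 were tested. Of these, 3 rose and 0 fell in dPoflbC against dCA, 0 rose and 2 fell in dPoClrC against dCA, and 3 rose and 0 fell in dPoflbC against dPoClrC. These are 30%, 20% and 30% of the list. Of all genes tested, 11.4% were called higher, 7.35% lower and 9.05% higher in these comparisons in the same order. In either direction 27.1%, 13.0% and 22.6% were called, and with 10 genes these counts are small. The median log2 fold change of the list was 0.31, 0.23 and 0.65. Their summed level in unscaled RPKM was 1624 ± 107 in dPoflbC, 755 ± 62.3 in dPoClrC and 811 ± 187 in dCA, so dPoClrC and dCA overlapped within their spread. The dCA sums ran from 676 to 1025 RPKM. With no scaling, the median log2 fold change of all genes tested was 0.51 in dPoflbC against dCA and 0.29 in dPoflbC against dPoClrC. The higher dPoflbC sum thus includes that general difference.

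Transketolase PDE_00194, an enzyme of the pentose phosphate pathway, showed the same order of strains as PDE_07008. Its level was 232, 246 and 264 RPKM in dPoflbC, 134, 131 and 158 RPKM in dPoClrC and 93.7, 48.8 and 84.9 RPKM in dCA. It rose in dPoflbC against dCA, with a log2 fold change of 1.15 (SE 0.16, adjusted p = 0.000113, edgeR). It was not called in dPoClrC against dCA (0.62) or in dPoflbC against dPoClrC (0.53). With no scaling, the medians of all genes tested put the strains in the same order. The alpha subunit of the E1 component of pyruvate dehydrogenase, PDE_02440, which feeds pyruvate into the tricarboxylic acid cycle, was at 230.004 ± 12.1, 119.99 ± 14.3 and 76.3 ± 20.8 RPKM. It also rose in dPoflbC against dCA, by a log2 fold change of 1.03, which was 0.94 and not called without dCA replicate 2, and was also lost without dPoflbC replicate 3. Its partner, the beta subunit PDE_01446, was at 121 ± 4.99, 71.2 ± 12.3 and 42.1 ± 10 RPKM. The beta subunit's log2 fold change of 0.96 was not called, and was 1.53 and called with no scaling.

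The other gene that rose in dPoflbC against dCA was PDE_00382 (1.07, adjusted p = 0.0185, edgeR), a coding length of only 165 bases that KEGG matches to a pyruvate dehydrogenase beta subunit. Its call was lost without dPoflbC replicate 2 or dCA replicate 3. The pyruvate decarboxylase PDE_04911, which makes acetaldehyde from pyruvate, was at 238 ± 13.1 RPKM in dPoflbC, 85.6 ± 4.74 RPKM in dPoClrC and 130.1 ± 35.9 RPKM in dCA. It rose in dPoflbC against dPoClrC (1.20, adjusted p = 0.00209, edgeR).

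The 2 subunits of the E1 component of 2-oxoisovalerate dehydrogenase, which breaks down branched-chain amino acids, were lowest in dPoClrC. PDE_08806, the alpha subunit, measured 271, 159 and 182 RPKM in dPoflbC, and 17.7, 14.1 and 13.0 RPKM in dPoClrC. In dCA it was at 44.5, 258 and 34.6 RPKM, with replicate 2 high and overlapping dPoflbC. The alpha subunit fell in dPoClrC against dCA (-3.40, adjusted p = 0.00784, edgeR), by -1.58 without dCA replicate 2. It rose in dPoflbC against dPoClrC (3.50, adjusted p = 0.00343, edgeR). The uncalled log2 fold change of 0.10 in dPoflbC against dCA became 1.93, a call, without dCA replicate 2. PDE_09047, the beta subunit, fell in dPoClrC against dCA (-2.59, and -1.33 without dCA replicate 2) and rose in dPoflbC against dPoClrC (2.20). Of the remaining members, the pyruvate decarboxylase PDE_04873, the 2-oxoglutarate dehydrogenase PDE_08580 and the acetolactate synthase PDE_04748 were not called after scaling. With no scaling PDE_04873 was called in dPoClrC against dCA (1.20) and PDE_04748 in dPoflbC against dPoClrC (1.26). The second acetolactate synthase, PDE_06741, had 5 reads over all libraries and was not tested.

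**Figure D5:**
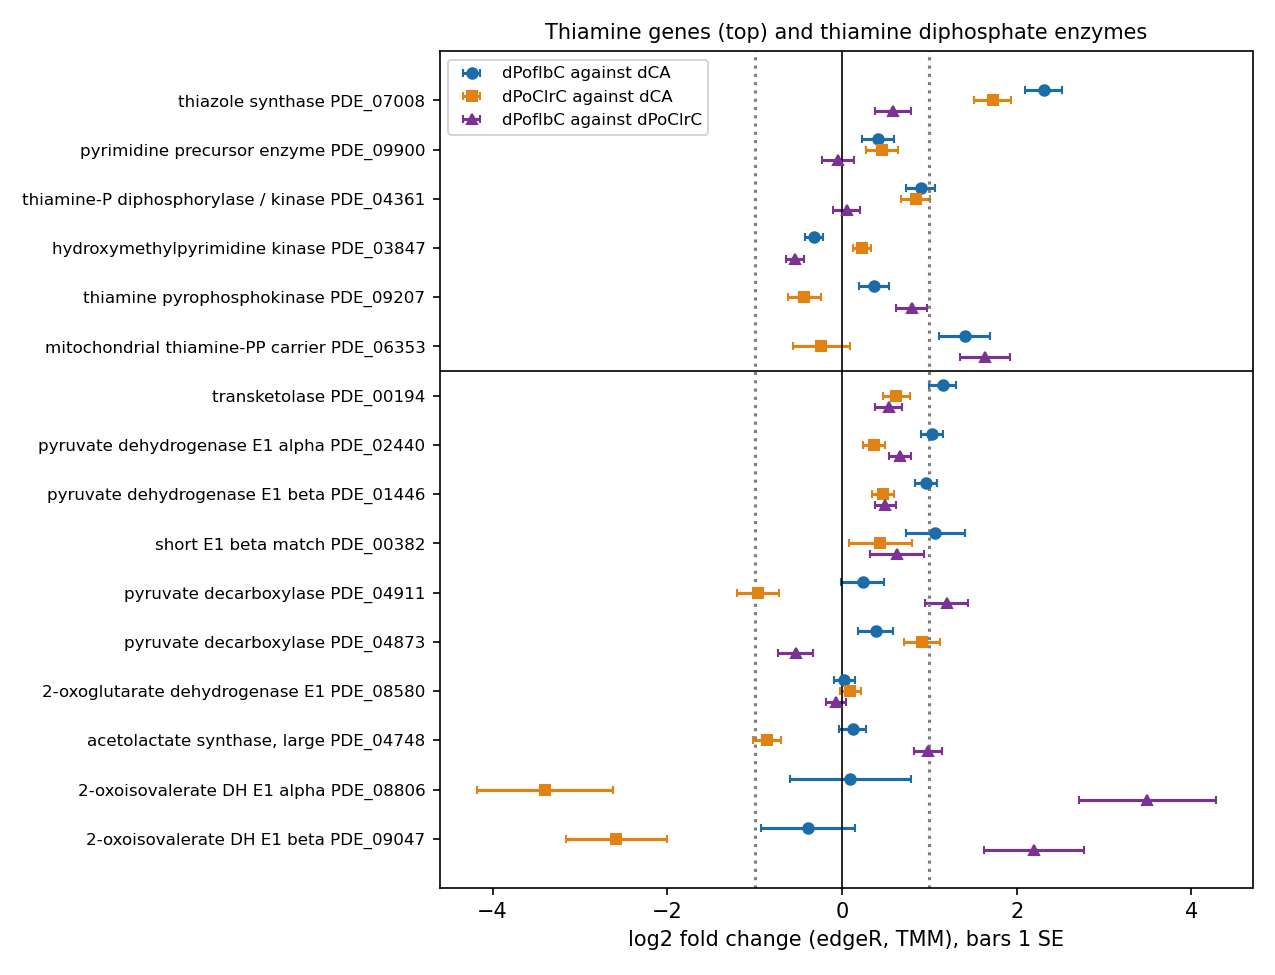
Log2 fold change (horizontal axis, edgeR after TMM scaling, bars 1 SE) of the 6 thiamine genes (above the line) and the 10 tested thiamine diphosphate enzymes (below) in the 3 comparisons, with dotted lines at -1 and 1. PDE_07008 lies past 1 in both comparisons with dCA (2.31 and 1.72), while PDE_09900 lies within the dotted lines in all 3.

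The thiazole synthase draws on NAD and glycine, and the pyrimidine precursor enzyme on pyridoxal phosphate. Among the genes that search words listed for making these substrates, 0 rose against dCA after scaling, in dPoflbC or in dPoClrC. There 11.4% and 5.69% of all genes tested were called higher. With no scaling, 1 gene of NAD synthesis (PDE_06694, 1.39) and 1 of glycine synthesis were called higher in dPoflbC, and 1 of glycine synthesis in dPoClrC. NAD synthesis had 13 genes, of which 1 fell in dPoflbC and 3 in dPoClrC, both against dCA. These are 7.69% and 23.1% of the list, beside 15.8% and 7.35% of all genes called lower, and with 13 genes these counts are small. Those that fell against dCA were indoleamine dioxygenases and a kynureninase, which act on tryptophan or its products. Whether they serve NAD synthesis here was not tested. In dPoflbC against dPoClrC 2 rose and 1 fell, where 9.05% of all genes tested were called higher and 13.6% lower. The indoleamine dioxygenase PDE_02454, which opens the ring of tryptophan, a step that can lead to NAD, ran against PDE_07008. Its level was 444, 377 and 339 RPKM in dPoflbC, 557, 530.5 and 509 RPKM in dPoClrC and 1211, 1138 and 1067 RPKM in dCA. It was highest in dCA and lowest in dPoflbC, with no overlap, and fell in both strains against dCA (-2.16, adjusted p = 2.83e-06, and -1.42, adjusted p = 0.000194, edgeR). Scaled counts of PDE_02454 did not overlap between any of the strains either. On that scale, 68.2% of all genes tested did not overlap between dPoflbC and dCA. This share was 50.6% between dPoClrC and dCA and 69.6% between dPoflbC and dPoClrC.

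Kynureninase PDE_02455, from the same pathway, was at 694 ± 88.8, 257 ± 48.5 and 584 ± 52.8 RPKM in dPoflbC, dPoClrC and dCA. It fell in dPoClrC against dCA (-1.53) and rose in dPoflbC against dPoClrC (1.16). A second indoleamine dioxygenase, PDE_05907, was at 317 ± 106, 9.97 ± 4.17 and 145 ± 156 RPKM. Its value in dCA replicate 2 was 326 RPKM, against 51.7 and 58.2 RPKM in replicates 1 and 3. It fell in dPoClrC against dCA (-4.35, and -2.64 without dCA replicate 2) and rose in dPoflbC against dPoClrC (4.72). Its log2 fold change in dPoflbC against dCA was 0.37 and not called, and 2.08 and called without dCA replicate 2. The indoleamine dioxygenase PDE_02071 fell in dPoflbC against dPoClrC (-1.10), and this was -0.83 and not called with no scaling.

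In the 3 comparisons 27.1%, 13.0% and 22.6% of all genes tested were called. Of 5 genes of pyridoxal phosphate synthesis, 0 were called in dPoflbC against dCA. The only one called in the other comparisons was PDE_04204, the glutaminase subunit of pyridoxal phosphate synthase, at 28.3 ± 11.3, 9.54 ± 1.13 and 21.6 ± 7.59 RPKM. It fell in dPoClrC against dCA (-1.53, adjusted p = 0.0107, edgeR) and rose in dPoflbC against dPoClrC (1.29, adjusted p = 0.0131, edgeR), a call lost without dPoflbC replicate 1. The synthase subunit PDE_09593 was at 168 ± 27.3, 84.2 ± 11.0 and 126 ± 16.5 RPKM and was not called. The pyridoxine dehydrogenase PDE_07148 was at 137 ± 4.38, 107 ± 2.80 and 80.8 ± 7.96 RPKM and was not called either.

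Of 5 genes of glycine synthesis, 1 fell in dPoflbC against dCA, 1 fell in dPoClrC against dCA and 1 rose in dPoflbC against dPoClrC. Each is 20% of the list, beside 15.8% and 7.35% of all genes called lower and 9.05% called higher. In either direction 27.1%, 13.0% and 22.6% were called, and 1 of 5 genes is a small count. The glycine hydroxymethyltransferase PDE_04090, which makes glycine from serine, fell in dPoflbC against dCA (-1.19). Without dCA replicate 2 this was -0.91, and unscaled it was -0.56, which are not calls. The threonine aldolase PDE_08440, which releases glycine from threonine, was at 17.5 ± 6.42, 4.38 ± 0.716 and 7.44 ± 1.33 RPKM. It fell in dPoClrC against dCA (-1.09) and rose in dPoflbC against dPoClrC (1.71). The fall was not called without dCA replicate 2 (-0.78), without dPoClrC replicate 1 or 3, or with no scaling (-0.76). With no scaling its difference in dPoflbC against dCA was called, at 1.23 against 0.62 after scaling. The most abundant members, PDE_07020 (a transaminase of glyoxylate) and PDE_04963 (a second glycine hydroxymethyltransferase), were not called. With no scaling PDE_07020 was called in dPoClrC against dCA, at 1.26 against 0.97 after scaling.

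The search words for other vitamins and cofactors also caught PDE_01756, described as a putative alpha-glucosidase, through a KEGG match to molybdopterin synthase. It was not called after scaling. Of the 28 genes listed, which include it, 27 were tested and 0 rose in any comparison after scaling. There were 3 that fell in dPoflbC against dCA, 0 in dPoClrC against dCA and 2 in dPoflbC against dPoClrC. Of all genes tested, 11.4%, 5.69% and 9.05% were called higher in these comparisons and 15.8%, 7.35% and 13.6% lower. With no scaling, 3 were called higher and 1 lower in dPoflbC against dCA, and 4 higher and 0 lower in dPoClrC against dCA. The median log2 fold changes were -0.37, 0.01 and -0.26. Those 4 include PDE_00279 (1.27) and PDE_02491 (1.01). PDE_05476, matched to a molybdenum cofactor sulfurtransferase, was at 61.2 ± 11.5 RPKM in dPoflbC, 403 ± 54.2 RPKM in dPoClrC and 596 ± 162 RPKM in dCA. It fell in dPoflbC against dCA (-3.84, adjusted p = 3.55e-07, edgeR) and against dPoClrC (-2.996, adjusted p = 1.58e-06, edgeR). Biotin synthase PDE_03490 (-1.02) and the dehydropantoate reductase PDE_03846 (-1.37) also fell in dPoflbC against dCA, and with no scaling neither was called (-0.40 and -0.77). The biotin synthase call was lost in 10 of 18 alternatives, among them DESeq2 (-0.97) and those without dPoflbC replicate 2 (-0.95) or dCA replicate 2 (-0.74). PDE_00279, matched to a pantothenate transporter, fell in dPoflbC against dPoClrC (-1.30). The riboflavin gene PDE_02491, a lumazine synthase and the second most abundant of the list, was not called after scaling.

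Of the 4 nearest locus numbers to PDE_07008, 0 were called higher in any comparison after scaling, where 11.4%, 5.69% and 9.05% of all genes were, so 0 of 4 is near the background. PDE_07007 and PDE_07009, on either side of it by number, were at 9.10 to 15.3 and at 19.5 to 37.7 RPKM by strain mean and were not called. PDE_07010, matched to a subunit of the COMPASS histone methyltransferase, was not called after scaling (0.80 in dPoflbC against dCA, and 1.37 and called with no scaling). PDE_07006 fell in dPoflbC against dCA (-1.16) and against dPoClrC (-1.20). With no scaling these values were -0.60 and -0.92, and neither was called. The first was also lost without dCA replicate 1 (-0.98) and the second without dPoClrC replicate 3 (-0.95).

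Around PDE_09900, the alpha-mannosyltransferase PDE_09901 ran the other way. Its level was 32.0, 40.3 and 45.2 RPKM in dPoflbC, 85.3, 103 and 102 RPKM in dPoClrC and 118, 227 and 168 RPKM in dCA. It was highest in dCA and lowest in dPoflbC, with no overlap. Scaled counts of PDE_09901 did not overlap between any of the strains either. In dPoflbC against dCA, 68.2% of all genes tested did not overlap in scaled counts and 27.1% were called. These shares were 50.6% and 13.0% in dPoClrC against dCA, and 69.6% and 22.6% in dPoflbC against dPoClrC. PDE_09901 fell in dPoflbC against dCA (-2.77, adjusted p = 3.37e-05, edgeR) and against dPoClrC (-1.58), and in dPoClrC against dCA (-1.19). That last call was lost without dCA replicate 2 (-0.75) and with no scaling (-0.82). The short gene PDE_09897, of 264 bases, rose in dPoflbC (1.43, a call lost without dPoflbC replicate 1) and dPoClrC (1.63) against dCA. The glycogen synthase PDE_09899 fell in dPoflbC against dPoClrC (-1.15, and -0.88 and not called with no scaling). PDE_09902, farnesyl diphosphate synthase, was at 199 ± 2.18, 175 ± 17.0 and 93.3 ± 37.5 RPKM and was not called, though with no scaling its difference in dPoflbC against dCA was 1.09 and called.

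Over the 9 libraries the 2 precursor genes were not each other's nearest match. Likeness was measured as Pearson's r of log2 scaled counts per M reads, and is a description, since the libraries fall into 3 strains and those of a strain share it. Between PDE_07008 and PDE_09900 r was 0.821. For PDE_07008 there were 469 of the other tested genes (5.40%) at r of 0.9 or more, and for PDE_09900 there were 20 (0.230%). The genes with an informative description that were most like PDE_07008 were the DNA polymerase phi PDE_06976 (r = 0.989), the transcription factor C subunit PDE_04739 (0.986), the xyloglucan-specific endoglucanase PDE_02886 (0.981), the alpha-glucoside transporter PDE_01853 (0.978) and the beta-glucosidase PDE_03485 (0.977). PDE_01853 was at 149.8 ± 9.95, 86.1 ± 9.22 and 29.9 ± 9.01 RPKM in dPoflbC, dPoClrC and dCA, and rose in dPoflbC (1.77) and dPoClrC (1.25) against dCA. A pattern similar to that of PDE_07008 follows from its choice by likeness over the same libraries.

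Most like PDE_09900 were the carboxymethylenebutenolidase PDE_02424 (r = 0.937), the endosomal sorting subunit PDE_05677 (0.928), the unsaturated glucuronyl hydrolase PDE_02902 (0.922), PDE_05249 with a peptidoglycan binding domain (0.914) and the polyketide synthase PDE_09491 (0.911). PDE_02424 was at 115 ± 3.80, 95.7 ± 7.23 and 58.1 ± 10.9 RPKM, with log2 fold changes of 0.41 and 0.42 against dCA, close in size to those of PDE_09900. A similar pattern follows from its choice by likeness over the same libraries. The last 2 genes named, PDE_05249 and PDE_09491, were at 3.12 RPKM or less by strain mean. These lists depend on the libraries: when each library was left out in turn, 2 to 5 of the 5 genes named for PDE_07008 stayed among its nearest 5, and 1 to 5 of those for PDE_09900.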

How the data were processed

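The authors deposited whole read counts (unique reads per gene, per the file headers), RPKM and the percent of the gene length covered, for 9 libraries. A dash was read as 0. The deposited RPKM equalled reads per kilobase and per M reads in genes in 100.0% of values, within 0.1%. CASAVA 1.8 is named in the submitters' processing notes. For the aligner, counter, build and strand setting the sources used here give no name, so reads of an overlapping antisense gene cannot be told apart. The reference table matched 0 of the locus numbers, so no sequence is shown.

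Genes were kept by filterByExpr (8681 of 9786; both PDE_07008 and PDE_09900 passed). edgeR 4.0.16 (TMM, glmQLFit, glmQLFTest, all 9 libraries, 1 mean per strain, no replicate block) gave the tests, two-sided, and the SE is the log2 fold change over the square root of F. Alternatives were other scalings or none, no filter, only the strains compared, a replicate block, each library left out, DESeq2 1.42.0 and limma 3.58.1 on RPKM in R 4.3.3, and ratios were compared with scipy 1.17.1. The fits were tested on simulated data. Genes were named by rule: all thiamine genes, those called or the 2 most abundant of 5 other lists found by search words, the 2 locus numbers on each side, the next ranks and the 5 most alike genes; enzyme subunits without the cofactor were left out. The genes and lists were chosen with earlier results of these data known.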

Additional observations from a re-analysis of the deposited data

How the results depend on the processing

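The calls of PDE_07008 against dCA were kept under all 18 alternatives, with log2 fold changes of 2.18 to 2.91 in dPoflbC and 1.59 to 2.05 in dPoClrC. Its difference between dPoflbC and dPoClrC was never called (0.51 to 0.87), with an adjusted p of 0.00142 to 0.110. PDE_09900 was not called in any comparison under any alternative (0.35 to 1.00 in dPoflbC against dCA, adjusted p 0.00129 to 0.200, and 0.37 to 0.76 in dPoClrC against dCA, adjusted p 0.00128 to 0.206). Its value in dPoflbC against dPoClrC of -0.05 changed sign with no scaling (0.23) and with limma on log2(RPKM + 0.1), (RPKM + 1) and (RPKM + 5) (0.23 each), and ran from -0.16 to 0.0418 when single libraries were left out, above 0 without dPoflbC replicate 1 or dPoClrC replicate 3. The thiamine genes called in dPoClrC against dCA went from 1 to 2 with no scaling, with limma at pseudocounts of 0.1 and 1 and without dCA replicate 1 (range 1 to 2 over left-out libraries), each time by adding PDE_04361. Those in dPoflbC against dPoClrC went from 1 to 2 with no scaling and with limma at 0.1, by adding PDE_09207, and thiamine diphosphate enzymes there from 3 to 5 with limma at 0.1. As a ratio of reads the PDE_07008 to PDE_09900 ratio in dPoflbC was 1.21 in place of 1.25, since the lengths differ; left-out libraries gave 1.23 to 1.27 in dPoflbC, 0.762 to 0.873 in dPoClrC and 0.299 to 0.377 in dCA. Of 43 calls of other named genes, 23 were kept throughout, 20 were lost under some alternative, 9 of them with no scaling, and 0 reversed. With no scaling 2272 genes were called higher and 757 lower in dPoflbC against dCA, in place of 988 and 1368, 887 and 454 in dPoClrC against dCA in place of 494 and 638, and 1289 and 876 in dPoflbC against dPoClrC in place of 786 and 1179. Replicate numbers shared between strains are only numbers: same-numbered libraries deviated from their strain means with r of -0.18 to 0.12, and 8 of 18 best matches had the same number. With the replicate number as a block, PDE_07008 had 2.33 and 1.73 against dCA and the called genes were 2332, 1096 and 1966 in place of 2356, 1132 and 1965. Counting error weighs more for genes with few reads, such as PDE_00382 with 232 reads over the 9 libraries, PDE_05249 with 159 and PDE_09491 with 287.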
